A study of Homo sapiens with 9 samples.

Results

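The BCL2 family genes described here are 10 regulators of the mitochondrial pathway of apoptosis, listed by name and split into 4 pro-survival members (BCL2, BCL2L1, MCL1 and BCL2A1) and 6 BH3-only members (BCL2L11, BMF, PMAIP1, BBC3, BIK and BID). The list was set by gene name, and it was chosen with earlier results of these data known. All 10 were found among the 60230 genes of the deposited tables, and 9 of them were among the 17307 genes with enough reads to be tested. BCL2 itself was the member that was not.

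The RNA came from NCI-H358, a human lung adenocarcinoma line that is sensitive to the covalent inhibitor sotorasib. On-drug cells were the resistant derivative NCI-H358-R kept under sotorasib at 250 nM and sampled 4 days after dosing. Off-drug cells were NCI-H358-R without sotorasib, and how long they had been without it is not stated. Parental cells were the sotorasib-sensitive line without treatment. NCI-H358-R was derived from NCI-H358 by continuous culture in the drug until it grew readily, and the labels do not say whether it is a clone or a pool. There were 3 libraries per state, which the design text calls biological replicates. Whether each had its own culture is not stated, and p-values therefore reflect only how far these libraries differ, which may be technical.

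Pro-survival proteins of the family hold the pore-forming effectors BAX and BAK1 in check at the outer mitochondrial membrane. BH3-only proteins carry a short helix that sits in the groove of the pro-survival proteins, and some of them also bind the effectors directly. In lung cancer cells, growth factor signalling is known to mark the BH3-only protein BIM for degradation and to repress its gene, and BIM is known as a mediator of death when that signalling is blocked.

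The 8 members with an entry in the RefSeq promoter table (build GRCh38.p14) had 14 windows, each reaching from 250 bases before to 50 bases after a transcription start. Of 6 motifs searched for on both strands, exact matches to 4 lay in the windows of BCL2L11, BBC3, BCL2A1 or BID. The stretches of BCL2L11, BBC3 and BCL2A1 are shown because the transcripts of these genes differed between the cell states below. The BCL2L11 stretch (chr2:111120664-111120913, plus strand) lies before the RefSeq start of its window but within the annotated gene, and holds no annotated exon. Its capitals mark the forkhead letters GTAAACA at position -223 counted from that start. The BBC3 stretch (chr19:47232767-47232917, minus strand) also holds no annotated exon, and its capitals mark the E-box letters CACGTG at -232 and the AP-1 letters TGAGTCA at -113. The BCL2A1 stretch (chr15:79971241-79971270, minus strand) lies within an exon of another annotated transcript, and its capitals mark the letters TGATGCAA of the ATF4-C/EBP composite motif at -63.
BCL2L11: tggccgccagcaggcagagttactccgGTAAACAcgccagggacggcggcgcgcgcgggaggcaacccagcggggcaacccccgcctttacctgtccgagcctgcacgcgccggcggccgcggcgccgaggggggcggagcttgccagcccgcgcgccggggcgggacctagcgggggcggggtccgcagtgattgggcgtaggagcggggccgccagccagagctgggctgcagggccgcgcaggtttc
BBC3: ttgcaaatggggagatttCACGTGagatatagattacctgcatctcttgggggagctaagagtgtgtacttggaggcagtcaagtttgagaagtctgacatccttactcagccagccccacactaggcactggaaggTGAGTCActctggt
BCL2A1: atattataaagTGATGCAAacagaaattcc

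Among the 35116 promoters of that table, 3.42% held the forkhead letters, 7.26% the E-box, 4.95% the AP-1 letters (TGACTCA or its reverse complement TGAGTCA) and 0.866% the ATF4-C/EBP letters. The E-box was also found in 2 overlapping windows of BID, at the same match. No member window held the E2F letters (TTTCGCGC or TTTGGCGC) or the CRE letters (TGACGTCA), which 1.15% and 1.85% of all promoters held. These matches describe the letters of the window and were not tested as binding sites.

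Libraries held 33394741 to 34727826 estimated counts in on-drug cells, 25728092 to 33988889 in off-drug cells and 25698500 to 31787105 in parental cells. Per-library values below are counts scaled to library size (CPM) with edgeR's TMM factors, which were 1.11 to 1.12 in on-drug, 0.917 to 0.95 in off-drug and 0.937 to 0.972 in parental libraries. Levels of different members are compared as TPM, the deposited transcript abundances of the authors, which are corrected for length. Scaling by library size alone moved the median log2 fold change of all tested genes to 0.27 for on-drug against off-drug cells, where the TMM value was 0.02, and to 0.24 for on-drug against parental cells, where it was 0.02. With that scaling 68.5% of the called genes were higher in on-drug than in off-drug cells, against 50.1% with TMM, and 64.3% were higher in on-drug than in parental cells, against 50.4%. On log2(TPM + 1) values these shares were 64% and 69.7%, and that of genes higher in off-drug than in parental cells was 64.6%, against 51.6%. All epithelial markers fixed for the line were detected, and their summed level was 2090 to 2810 TPM in on-drug, 3480 to 3970 TPM in off-drug and 3440 to 4110 TPM in parental cells. In on-drug against off-drug cells NKX2-1 and CDH1 rose (log2 fold changes 2.13 ± 0.09 and 0.51 ± 0.1, as called by edgeR), while EPCAM, KRT8, KRT18 and KRT19 fell. Summed levels of the 5 fibroblast markers were 77.5 to 98.4 TPM, 5.51 to 7.17 TPM and 7.98 to 10.3 TPM in the on-drug, off-drug and parental libraries. LUM, a matrix proteoglycan gene, made up most of the on-drug sum. In on-drug against off-drug cells LUM, COL1A1 and COL3A1 rose and no marker of the list fell; COL3A1 had 534.1 estimated counts over the on-drug libraries and 0 in both other states. DCN, too low to be tested, had 18 counts over the on-drug, 2 over the off-drug and 0 over the parental libraries. The 6 leukocyte markers summed to 7.08 to 7.88 TPM in on-drug, 63.7 to 73.6 TPM in off-drug and 38.8 to 42.9 TPM in parental cells. CD68 led that sum in every state. CD79A, a B cell gene, averaged 0.142 TPM in on-drug, 12.7 TPM in off-drug and 0.8 TPM in parental cells, and CD79A, CD68 and LYZ all fell in on-drug against off-drug cells. PTPRC, CD3E and TYROBP, which define leukocytes, were at or near 0 TPM. The 5 endothelial markers summed to 2.94 to 4.19 TPM, 4.33 to 4.75 TPM and 1.53 to 2.38 TPM. KDR led that sum in every state, and the other markers averaged below 1 TPM. In on-drug against off-drug cells CDH5 (3.14 ± 0.48) and VWF (2.05 ± 0.32) rose, as called by edgeR. PECAM1 (-5.65 ± 0.34) and KDR (-0.78 ± 0.14) fell, and CLDN5 was too low to be tested. The part of these marker levels in the results was not tested, and in bulk RNA fewer cells of a type and less RNA per cell cannot be told apart.

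Sotorasib in the resistant line went with lower levels of every pro-survival member that could be tested and with opposite changes among the BH3-only members. Of the 9 members tested, 8 passed the test in on-drug against off-drug cells (edgeR's quasi-likelihood test, Benjamini-Hochberg adjusted p under 0.05), where 62.6% of all tested genes did. Of these, 2 rose and 6 fell, and the median log2 fold change over the 9 was -1.58, against 0.02 over all tested genes. A change of at least 2-fold was seen in 7 of the 9, against 24.8% of all genes. Groups did not overlap for 8 of the 9, against 67.6% of all genes.

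**Figure D1:**
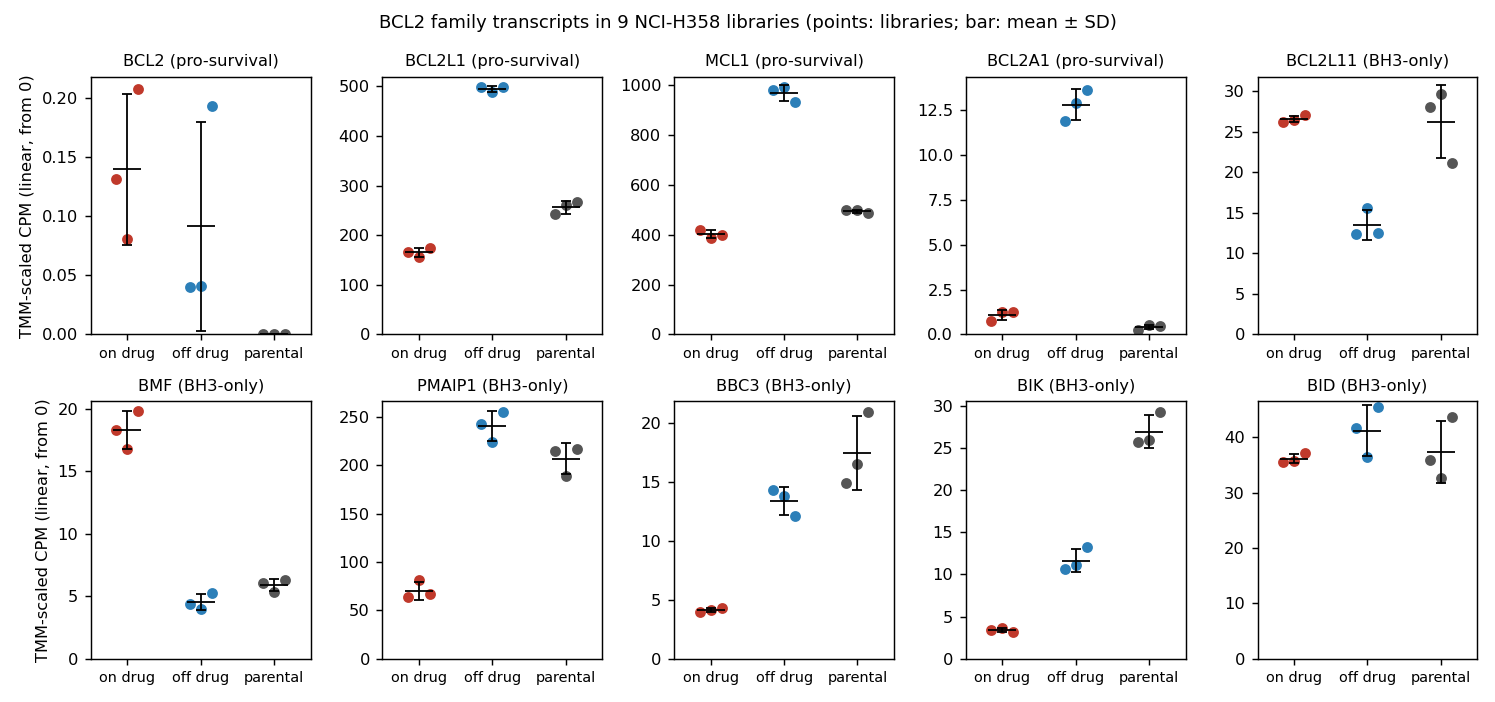
TMM-scaled CPM of the 10 members in each library (points), with the mean and SD of each state (bar and whiskers); every vertical axis is linear and starts at 0. The off-drug libraries stand above both other states for BCL2L1, MCL1 and BCL2A1, while on-drug libraries stand above both for BMF and below both for PMAIP1, BBC3 and BIK.

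BCL2L1 (chromosome 20, 31664452 to 31723989, minus strand, GRCh38) encodes BCL-XL, a pro-survival protein of the outer mitochondrial membrane. Its level was 167, 156 and 174 CPM in on-drug libraries, 499, 488 and 498 CPM in off-drug libraries and 242, 261 and 267 CPM in parental libraries. The 3 states did not overlap, with the on-drug libraries lowest and the off-drug libraries highest. BCL2L1 fell in on-drug against off-drug cells, with a log2 fold change of -1.58 ± 0.08 (SE) and an adjusted p of 5e-11 in edgeR's quasi-likelihood test with Benjamini-Hochberg adjustment. It rose in off-drug against parental cells, with a log2 fold change of 0.95 ± 0.07 (edgeR adjusted p = 3.6e-08). It was lower in on-drug than in parental cells, with a log2 fold change of -0.63 ± 0.07 (edgeR adjusted p = 1.8e-06), a call that was lost only on unfiltered log2(TPM + 1) values among the alternatives run. The antisense gene ABALON shares 1424 exonic bases, or 43% of the exonic bases of BCL2L1. As a share of reads, not of level per length, its counts were 0.106% to 0.251% of those of BCL2L1 in on-drug, 0.189% to 0.279% in off-drug and 0.127% to 0.402% in parental libraries. The strand setting of the counting is not given, so reads in the shared bases cannot be told apart.

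MCL1 (chromosome 1, 150574551 to 150579738, minus strand) encodes a short-lived pro-survival protein. Its level was 420, 387 and 400 CPM in on-drug libraries, 980, 994 and 933 CPM in off-drug libraries and 498, 498 and 488 CPM in parental libraries. As for BCL2L1, the off-drug libraries were highest and no groups overlapped. It fell in on-drug against off-drug cells, with a log2 fold change of -1.27 ± 0.07 (edgeR adjusted p = 4.7e-10), and rose in off-drug against parental cells, with 0.97 ± 0.07 (edgeR adjusted p = 2.1e-08). Its smaller difference between on-drug and parental cells depended on the scaling. With TMM factors the log2 fold change was -0.3 ± 0.07 (edgeR adjusted p = 0.0019), with library size alone it was -0.07 (edgeR adjusted p = 0.38), and on log2(TPM + 1) values it was 0.03 (limma adjusted p = 0.76).

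BCL2A1 (chromosome 15, 79960889 to 79971446, minus strand) encodes the pro-survival protein BFL-1, whose gene is a known target of NF-kB. Its level was 0.758, 1.24 and 1.27 CPM in on-drug libraries, 11.9, 12.9 and 13.6 CPM in off-drug libraries and 0.262, 0.521 and 0.447 CPM in parental libraries. The off-drug libraries stood apart from both other states, and the parental libraries lay lowest without overlap. These levels rest on 124 estimated counts in the 3 on-drug libraries, 1039.9 in the off-drug libraries and 33 in the parental libraries. BCL2A1 fell in on-drug against off-drug cells, with a log2 fold change of -3.55 ± 0.2 (edgeR adjusted p = 2.8e-10), the largest change of any member in that comparison. It rose in off-drug against parental cells, with a log2 fold change of 4.98 ± 0.24 (edgeR adjusted p = 1.9e-10). On-drug cells also stood above parental cells, with 1.43 ± 0.29 (edgeR adjusted p = 0.00042), the only tested pro-survival member to do so.

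BCL2 (chromosome 18, 63123346 to 63320128, minus strand), the founding pro-survival gene of the family, was close to undetected in this line. It had 5, 3 and 8 estimated counts in on-drug libraries, 1, 1 and 6 in off-drug libraries and 0 in each parental library. A floor of 3 counts was scaled by library size without TMM factors, unlike the other CPM values. It corresponds to 0.0864 to 0.0898 CPM in an on-drug, 0.0883 to 0.117 CPM in an off-drug and 0.0944 to 0.117 CPM in a parental library. This floor is the limit that a count of 0 allows. The 2 off-drug libraries with 1 count lay below it, and such floors cover counting error only. BCL2 did not pass the filter on low counts and was not tested.

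BCL2L11 (chromosome 2, 111119378 to 111168447, plus strand) encodes BIM, a BH3-only protein that binds all pro-survival relatives, and its promoter stretch with the forkhead letters is shown above. Its level was 26.2, 26.4 and 27 CPM in on-drug libraries, 12.4, 15.6 and 12.5 CPM in off-drug libraries and 28, 29.6 and 21.1 CPM in parental libraries. Off-drug libraries were the lowest without overlap, and the on-drug libraries lay within the parental range. BCL2L11 rose in on-drug against off-drug cells, with a log2 fold change of 0.98 ± 0.12 (edgeR adjusted p = 4.2e-06), and fell in off-drug against parental cells, with -0.96 ± 0.12 (edgeR adjusted p = 8.3e-06). Between on-drug and parental cells the log2 fold change was 0.02 (95% confidence interval -0.24 to 0.27, edgeR adjusted p = 0.91), and without parental replicate 3 it was -0.12 (edgeR adjusted p = 0.32). The noncoding gene MIR4435-2HG lies on the opposite strand and shares 727 exonic bases, or 10.9% of those of BCL2L11. As a share of reads, not of level per length, its counts were 221% to 255% of those of BCL2L11 in on-drug libraries, 686% to 970% in off-drug libraries and 362% to 563% in parental libraries. MIR4435-2HG fell in on-drug against off-drug cells (log2 fold change -0.87 ± 0.08, edgeR adjusted p = 2.5e-07), opposite to BCL2L11, and had -0.02 ± 0.08 in off-drug against parental cells (edgeR adjusted p = 0.86). Reads of the shared bases cannot be told apart, and the BCL2L11 values carry that uncertainty.

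BMF (chromosome 15, 40087890 to 40108892, minus strand) encodes a BH3-only protein known to be tethered to the cytoskeleton. Its level was 18.3, 16.8 and 19.8 CPM in on-drug libraries, 4.41, 4.01 and 5.26 CPM in off-drug libraries and 6.08, 5.33 and 6.29 CPM in parental libraries. The on-drug libraries stood above every other library. BMF rose in on-drug against off-drug cells, with a log2 fold change of 2 ± 0.12 (edgeR adjusted p = 1.1e-09), and was higher in on-drug than in parental cells, with 1.63 ± 0.12 (edgeR adjusted p = 7.7e-09). The off-drug libraries lay just below the parental ones, with a log2 fold change of -0.37 ± 0.13 (edgeR adjusted p = 0.029). That call was lost on log2(TPM + 1) values (-0.02), with limma voom, and when off-drug replicate 1, off-drug replicate 2, parental replicate 1 or parental replicate 3 was left out. BMF-AS1, an antisense gene that shares 461 exonic bases with BMF, was too low to be tested.

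PMAIP1 (chromosome 18, 59899948 to 59904306, plus strand) encodes NOXA, a BH3-only protein that binds MCL1 and BFL-1 and whose gene responds to ATF4. Its level was 63.9, 81.2 and 66.7 CPM in on-drug libraries, 243, 224 and 255 CPM in off-drug libraries and 215, 189 and 217 CPM in parental libraries. The on-drug libraries were lowest by a wide gap, while the off-drug libraries lay just above the parental ones. PMAIP1 fell in on-drug against off-drug cells, with a log2 fold change of -1.77 ± 0.1 (edgeR adjusted p = 3.4e-10). It was also lower in on-drug than in parental cells, with a log2 fold change of -1.55 ± 0.1 (edgeR adjusted p = 1.3e-09). Its log2 fold change in off-drug against parental cells was 0.22 (95% confidence interval 0.01 to 0.42), which missed the threshold (edgeR adjusted p = 0.066), passed it on log2(TPM + 1) values (0.32, limma adjusted p = 0.0079) and passed it when parental replicate 3 was left out (0.26, edgeR adjusted p = 0.048).

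BBC3 (chromosome 19, 47220822 to 47232766, minus strand) encodes PUMA, a BH3-only protein that binds all pro-survival relatives, and its promoter stretch is shown above. Its level was 3.98, 4.15 and 4.3 CPM in on-drug libraries, 14.3, 13.8 and 12.1 CPM in off-drug libraries and 14.9, 16.5 and 21 CPM in parental libraries. The states did not overlap, and on-drug libraries were lowest. BBC3 fell in on-drug against off-drug cells, with a log2 fold change of -1.69 ± 0.13 (edgeR adjusted p = 2.1e-08), and was lower in on-drug than in parental cells, with -2.07 ± 0.13 (edgeR adjusted p = 1.4e-09). The decrease in off-drug against parental cells was smaller, at -0.38 ± 0.12 (edgeR adjusted p = 0.015). It was lost on log2(TPM + 1) values (-0.11) and when off-drug replicate 3 or parental replicate 3 was left out.

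BIK (chromosome 22, 43110748 to 43129712, plus strand) encodes a BH3-only protein of the endoplasmic reticulum. Its level was 3.4, 3.69 and 3.23 CPM in on-drug libraries, 10.6, 11.1 and 13.2 CPM in off-drug libraries and 25.7, 25.9 and 29.2 CPM in parental libraries. The states fell into 3 separate steps, with the on-drug libraries lowest and the parental libraries highest. BIK fell in on-drug against off-drug cells, with a log2 fold change of -1.76 ± 0.12 (edgeR adjusted p = 2.9e-09), and in off-drug against parental cells, with -1.2 ± 0.11 (edgeR adjusted p = 1.2e-07). Its log2 fold change of -2.97 ± 0.12 in on-drug against parental cells (edgeR adjusted p = 4.2e-12) was the largest of any member in that comparison.

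BID (chromosome 22, 17734138 to 17774770, minus strand) encodes a BH3-only protein that caspase-8 cleaves to link death receptors to mitochondria. Its level was 35.6, 35.7 and 37.1 CPM in on-drug libraries, 41.6, 36.4 and 45.5 CPM in off-drug libraries and 35.8, 32.7 and 43.6 CPM in parental libraries. BID was the only tested member that passed the test in none of the comparisons. Its log2 fold change was -0.19 (95% confidence interval -0.41 to 0.04, edgeR adjusted p = 0.14) in on-drug against off-drug cells, 0.14 (-0.09 to 0.37, edgeR adjusted p = 0.29) in off-drug against parental cells and -0.05 (-0.28 to 0.18, edgeR adjusted p = 0.7) in on-drug against parental cells. With library size alone, the on-drug against off-drug and on-drug against parental values of BID changed sign, to 0.07 and 0.18 (edgeR adjusted p = 0.56 and 0.13). Without parental replicate 3 the off-drug against parental value was 0.27 and passed the test (edgeR adjusted p = 0.031).

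**Figure D2:**
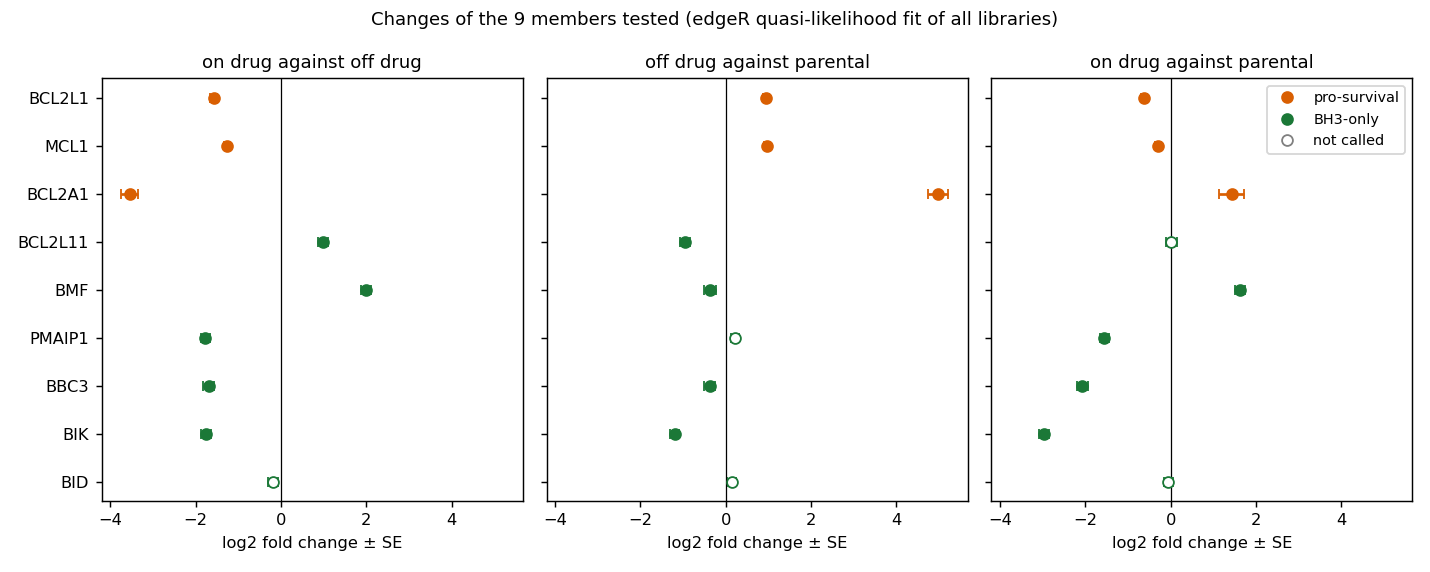
Log2 fold changes (point) with their standard errors (whiskers) of the 9 members tested, in the 3 comparisons, from the TMM-scaled fit of all libraries; open points did not pass the test. All 3 pro-survival members lie left of 0 in on-drug against off-drug cells and right of 0 in off-drug against parental cells; the on-drug against parental value of MCL1, -0.3, was 0.03 on log2(TPM + 1) values.

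By class, the 3 tested pro-survival members all fell in on-drug against off-drug cells, where 31.2% of all tested genes fell, and their median log2 fold change was -1.58. Of the 6 BH3-only members, BCL2L11 and BMF rose, where 31.4% of all genes did, and PMAIP1, BBC3 and BIK fell, with a class median of -0.94. The on-drug against off-drug and the off-drug against parental comparisons share the off-drug libraries, so they are not independent of each other.

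With TMM factors, the members called in off-drug against parental cells split by class. Among relatives outside the list, the pro-survival gene BCL2L2 and the BH3-only genes BAD and HRK all fell there, as called by edgeR. Of the 9 members tested, 7 passed the test in off-drug against parental cells, where 55% of all tested genes did, and 2 changed by at least 2-fold, against 17.2% of all genes. The 3 members that rose, BCL2L1, MCL1 and BCL2A1, were all pro-survival, while 28.4% of all genes rose. The 4 that fell, BCL2L11, BMF, BBC3 and BIK, were all BH3-only, while 26.6% of all genes fell. On log2(TPM + 1) values the BH3-only count was 1 higher (PMAIP1) and 2 lower (BCL2L11 and BIK), and without parental replicate 3 it was 2 higher (PMAIP1 and BID) and 2 lower. The median over the 9 members was 0.14, against 0 over all genes, and groups did not overlap for 8 of the 9, against 61.9% of all genes.

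Set against parental cells, resistant cells on drug had 7 of the 9 members past the test, where 66.3% of all tested genes were. BCL2A1 and BMF were higher, against 33.4% of all genes, and BCL2L1, MCL1, PMAIP1, BBC3 and BIK were lower, against 32.9%, with the dependence of MCL1 on the scaling given above. A change of at least 2-fold was seen in 5 of the 9, against 27.3% of all genes, and groups did not overlap for 7, against 69%. The median over the 9 members was -0.3, against 0.02 over all genes. The share of members called was near that of all genes in this comparison.

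On the TPM scale, MCL1 was the most abundant pro-survival transcript in every state and PMAIP1 the most abundant BH3-only transcript. In on-drug cells the order was MCL1 (mean 137 TPM), BCL2L1 (78.2), PMAIP1 (65.4), BID (41.6), BCL2L11 (7.87), BIK (5.8), BMF (5.7), BCL2A1 (2.93), BBC3 (2.78) and BCL2 (0.0297). There the ranges of BCL2L1 and PMAIP1, of BIK and BMF, and of BCL2A1 and BBC3 overlapped. In off-drug cells it was MCL1 (279 TPM), PMAIP1 (202), BCL2L1 (192), BID (41.4), BCL2A1 (29.7), BIK (16.3), BBC3 (7.3), BCL2L11 (3.58), BMF (1.29) and BCL2 (0.0234), and the ranges of PMAIP1 and BCL2L1 overlapped. In parental cells PMAIP1 (162 TPM) stood first, followed by MCL1 (133), BCL2L1 (90.9), BIK (34.6), BID (34.4), BBC3 (8), BCL2L11 (6.14), BMF (1.31), BCL2A1 (0.906) and BCL2 (0), with overlap between BIK and BID and between BBC3 and BCL2L11. BCL2A1 stood above BIK, BBC3, BCL2L11 and BMF in off-drug cells and below all of them in parental cells.

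The summed pro-survival level was 235, 198 and 219 TPM in on-drug libraries, 510, 526 and 465 TPM in off-drug libraries and 220, 237 and 218 TPM in parental libraries. The off-drug sums were the highest, and the on-drug and parental sums overlapped. The summed BH3-only level was 129, 131 and 127 TPM in on-drug libraries, 278, 261 and 276 TPM in off-drug libraries and 256, 235 and 249 TPM in parental libraries. Here the on-drug sums were the lowest and the off-drug sums the highest, without overlap. The ratio of the pro-survival to the BH3-only sum was 1.69 ± 0.153 in on-drug, 1.85 ± 0.165 in off-drug and 0.916 ± 0.0818 in parental cells (SD, n = 3 each). For the listed members, both resistant states lay above every parental library, and they overlapped with each other. In on-drug cells this ratio came with BH3-only sums below the parental ones and pro-survival sums that overlapped them. In off-drug cells it came with sums of both classes above the parental ones. These sums add transcripts of different genes, describe RNA only and were not tested. They leave out the BH3-only genes BAD and HRK. Together these had 48.9 to 56.6 TPM in on-drug, 27.4 to 31.4 TPM in off-drug and 36.4 to 42.2 TPM in parental libraries. Also left out, BCL2L2 and BCL2L10 together had 10.4 to 11.9, 7.3 to 9.13 and 8.57 to 10.6 TPM in the same order. The overlap of the resistant ratios therefore holds for the listed members only. With these genes added to the sums, every on-drug ratio lay below every off-drug ratio. Both resistant states still lay above every parental library, and the difference was not tested.

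**Figure D3:**
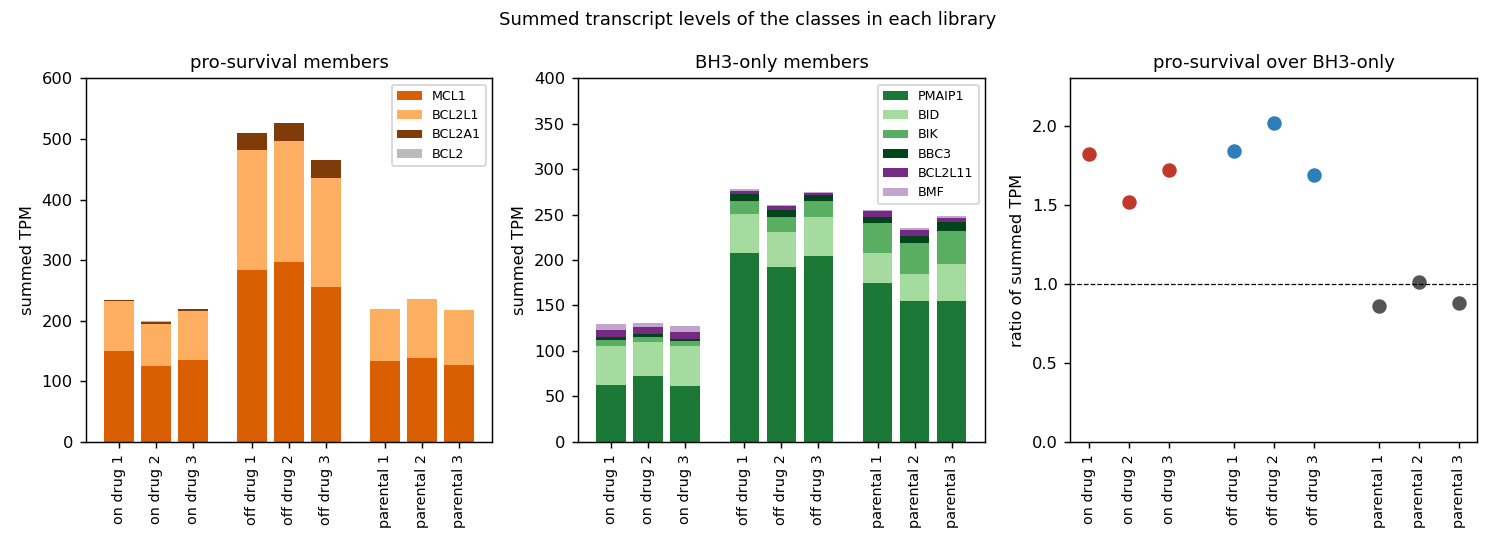
Summed TPM of the pro-survival members (left) and the BH3-only members (middle), stacked by gene, and the ratio of the sums (right), in each of the 9 libraries; a dashed line marks a ratio of 1. The ratio is 1.52 to 1.82 in on-drug libraries and 1.69 to 2.02 in off-drug libraries, against 0.861 to 1.01 in parental libraries.

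The make-up of each class also differed between states. BCL2A1 made up 0.899% to 1.68% of the pro-survival sum in on-drug, 5.62% to 6.42% in off-drug and 0.268% to 0.505% in parental libraries. PMAIP1 made up 48.1% to 55.4% of the BH3-only sum in on-drug, 73.8% to 74.8% in off-drug and 62.5% to 68.6% in parental libraries. BCL2L11 and BMF together made up 9.65% to 11% in on-drug, 1.49% to 2.02% in off-drug and 2.42% to 3.57% in parental libraries, with no overlap between states. BCL2L1 and BCL2L11, whose proteins bind each other, stood in a TPM ratio of 8.67 to 10.9 in on-drug, 48.7 to 58.5 in off-drug and 12.6 to 19.7 in parental libraries. For the partners MCL1 and PMAIP1 the ratio was 1.72 to 2.39 in on-drug, 1.25 to 1.54 in off-drug and 0.766 to 0.897 in parental libraries.

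The 3 effector genes changed in different directions. BAX had 30.9, 29.3 and 34.3 CPM in on-drug, 18.1, 18.6 and 17.2 CPM in off-drug and 13.5, 13.9 and 17.9 CPM in parental libraries. BAK1 had 32.5, 33.2 and 36 CPM in on-drug, 58.3, 56.5 and 59 CPM in off-drug and 70.7, 73.2 and 84.4 CPM in parental libraries. BAX was thus highest and BAK1 lowest in on-drug libraries. In on-drug against off-drug cells BAX rose (log2 fold change 0.81 ± 0.11, edgeR adjusted p = 7.8e-06), BOK, a less studied effector, rose (0.78 ± 0.1, edgeR adjusted p = 4.7e-06) and BAK1 fell (-0.77 ± 0.09, edgeR adjusted p = 1.1e-06). In on-drug against parental cells the values were 1.06 ± 0.11 for BAX (edgeR adjusted p = 3.8e-07) and -1.17 ± 0.09 for BAK1 (edgeR adjusted p = 7.2e-09), both past the test, and -0.12 ± 0.1 for BOK (edgeR adjusted p = 0.27). In off-drug against parental cells BOK and BAK1 fell, with -0.9 ± 0.1 (edgeR adjusted p = 1.6e-06) and -0.39 ± 0.08 (edgeR adjusted p = 0.00096), and BAX had 0.25 ± 0.11 (edgeR adjusted p = 0.072).

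Among the BH3-only genes outside the 10, BAD, whose protein is held inactive by survival kinases, rose in on-drug against off-drug cells (0.53 ± 0.09, edgeR adjusted p = 6.6e-05) and fell in off-drug against parental cells (-0.52 ± 0.09, edgeR adjusted p = 0.00013). HRK, a BH3-only gene best known from neurons, had 0.155 to 0.235 CPM in on-drug libraries, 0.449 to 0.614 CPM in off-drug libraries and 2.6 to 3.43 CPM in parental libraries. It was lowest in on-drug and highest in parental libraries. It fell in each comparison, by 3.89 on the log2 scale in on-drug against parental cells (edgeR adjusted p = 2.1e-08). Of the 2 other pro-survival relatives, BCL2L10 was too low to be tested, and BCL2L2, which encodes BCL-W, had a log2 fold change of 0.2 ± 0.09 in on-drug against off-drug cells (edgeR adjusted p = 0.07). That value depended on the scaling. BCL2L2 was called higher there with upper-quartile factors (0.34), with library size alone (0.46) and on log2(TPM + 1) values (0.37), but not with RLE factors (0.21). BCL2L2 was lower in off-drug than in parental cells (-0.34 ± 0.09, edgeR adjusted p = 0.0058), a call lost on log2(TPM + 1) values. Of 7 other genes with BCL2 homology, 5 were tested, and 1 rose (BECN1, an autophagy gene, 0.43 ± 0.07) and 1 fell (BCL2L13, -0.48 ± 0.07, a call lost on log2(TPM + 1) values) in on-drug against off-drug cells, as called by edgeR. This even split depended on the scaling. It was 2 higher and 1 lower with upper-quartile factors, 3 and 1 with library size alone, and 3 and 0 on log2(TPM + 1) values.

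Downstream of the mitochondria, 11 caspase and apoptosome genes were tested. In on-drug against off-drug cells 3 rose and 2 fell, with a median log2 fold change of 0.02, equal to that of all genes; with library size alone 5 rose and 1 fell (0.27, again equal). The executioner CASP6 rose (1.12 ± 0.1, edgeR adjusted p = 5.5e-08), as did CASP2 (0.72 ± 0.1, edgeR adjusted p = 1.4e-05). The initiator CASP9, which the apoptosome activates, fell (-0.92 ± 0.12, edgeR adjusted p = 6.3e-06), and so did CASP8, the initiator at death receptors (-0.43 ± 0.08, edgeR adjusted p = 0.00035), a call lost with library size alone. In off-drug against parental cells 1 rose and 4 fell, among them CASP6 (-0.94 ± 0.1) and CASP10 (-0.71 ± 0.14), as called by edgeR, with a list median of -0.2 against 0 over all genes. In on-drug against parental cells 2 rose and 5 fell, led by CASP2 (0.91 ± 0.1) and CASP8 (-0.73 ± 0.08), and the list median was -0.13 against 0.02. This balance depended on the scaling, with 3 higher and 4 lower (median 0.09 against 0.24) with library size alone and 4 higher and 1 lower (0.2 against 0.27) on log2(TPM + 1) values.

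Of 8 IAP genes, which encode caspase inhibitors, and their antagonists, 7 were tested. In on-drug against off-drug cells 1 rose and 3 fell, with a median of -0.29 against 0.02 over all genes. XIAP, the direct caspase inhibitor, fell (-0.47 ± 0.08, edgeR adjusted p = 6.4e-05) and BIRC5 rose (0.3 ± 0.1, edgeR adjusted p = 0.013), while the calls of DIABLO (-0.35 ± 0.09) and BIRC3 (-0.29 ± 0.1) were lost with upper-quartile factors, with library size alone and on log2(TPM + 1) values. BIRC3, like BCL2A1 a known NF-kB target, had 20.2, 23.7 and 19.8 CPM in on-drug, 26.2, 25 and 26.8 CPM in off-drug and 9.58, 7.73 and 7.52 CPM in parental libraries. Both resistant states were above every parental library for it. BIRC3 rose in off-drug against parental cells (1.65 ± 0.11, edgeR adjusted p = 7e-09), where 2 genes of the list rose and 2 fell, with a median of 0.19 against 0. In on-drug against parental cells 3 rose and 3 fell, led by BIRC3 (1.35 ± 0.11) and by HTRA2, an IAP antagonist (-1.03 ± 0.09), with a median of 0 against 0.02.

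Death receptors act upstream of BID, and the TRAIL receptor genes were low in on-drug cells. TNFRSF10A, which encodes the TRAIL receptor DR4, had 17.7, 17.4 and 16.7 CPM in on-drug, 87.5, 89.3 and 90.9 CPM in off-drug and 77.6, 71.6 and 72.8 CPM in parental libraries. TNFRSF10B, which encodes DR5, had 55.3, 51 and 54.6 CPM in on-drug, 210, 225 and 208 CPM in off-drug and 207, 220 and 213 CPM in parental libraries. For both receptors the on-drug libraries were far below all others. In on-drug against off-drug cells TNFRSF10A fell by 2.37 and TNFRSF10B by 2 on the log2 scale (SE 0.08 each, edgeR adjusted p = 6.8e-13 and 3.5e-12), and in on-drug against parental cells they were lower, with log2 fold changes of -2.1 and -1.99 (SE 0.08 each, edgeR adjusted p = 2.5e-12 and 3.4e-12). Their ligand gene TNFSF10 had 5.34, 6.62 and 6.6 CPM in on-drug, 2.18, 1.76 and 2.15 CPM in off-drug and 8.5, 9.82 and 8.27 CPM in parental libraries. TNFSF10 rose in on-drug against off-drug cells (1.6 ± 0.16, edgeR adjusted p = 2.6e-07) and fell in off-drug against parental cells (-2.12 ± 0.16, edgeR adjusted p = 1.9e-08). Over the death receptor list, with 9 of 10 genes tested, 3 rose and 4 fell in on-drug against off-drug cells (median 0.03 against 0.02 over all genes), 4 rose and 3 fell in off-drug against parental cells (0.14 against 0), and 1 rose and 6 fell in on-drug against parental cells (-0.39 against 0.02). The on-drug against parental count was 2 higher and 3 lower (-0.17 against 0.24) with library size alone and 2 higher and 2 lower (-0.06 against 0.27) on log2(TPM + 1) values.

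**Figure D4:**
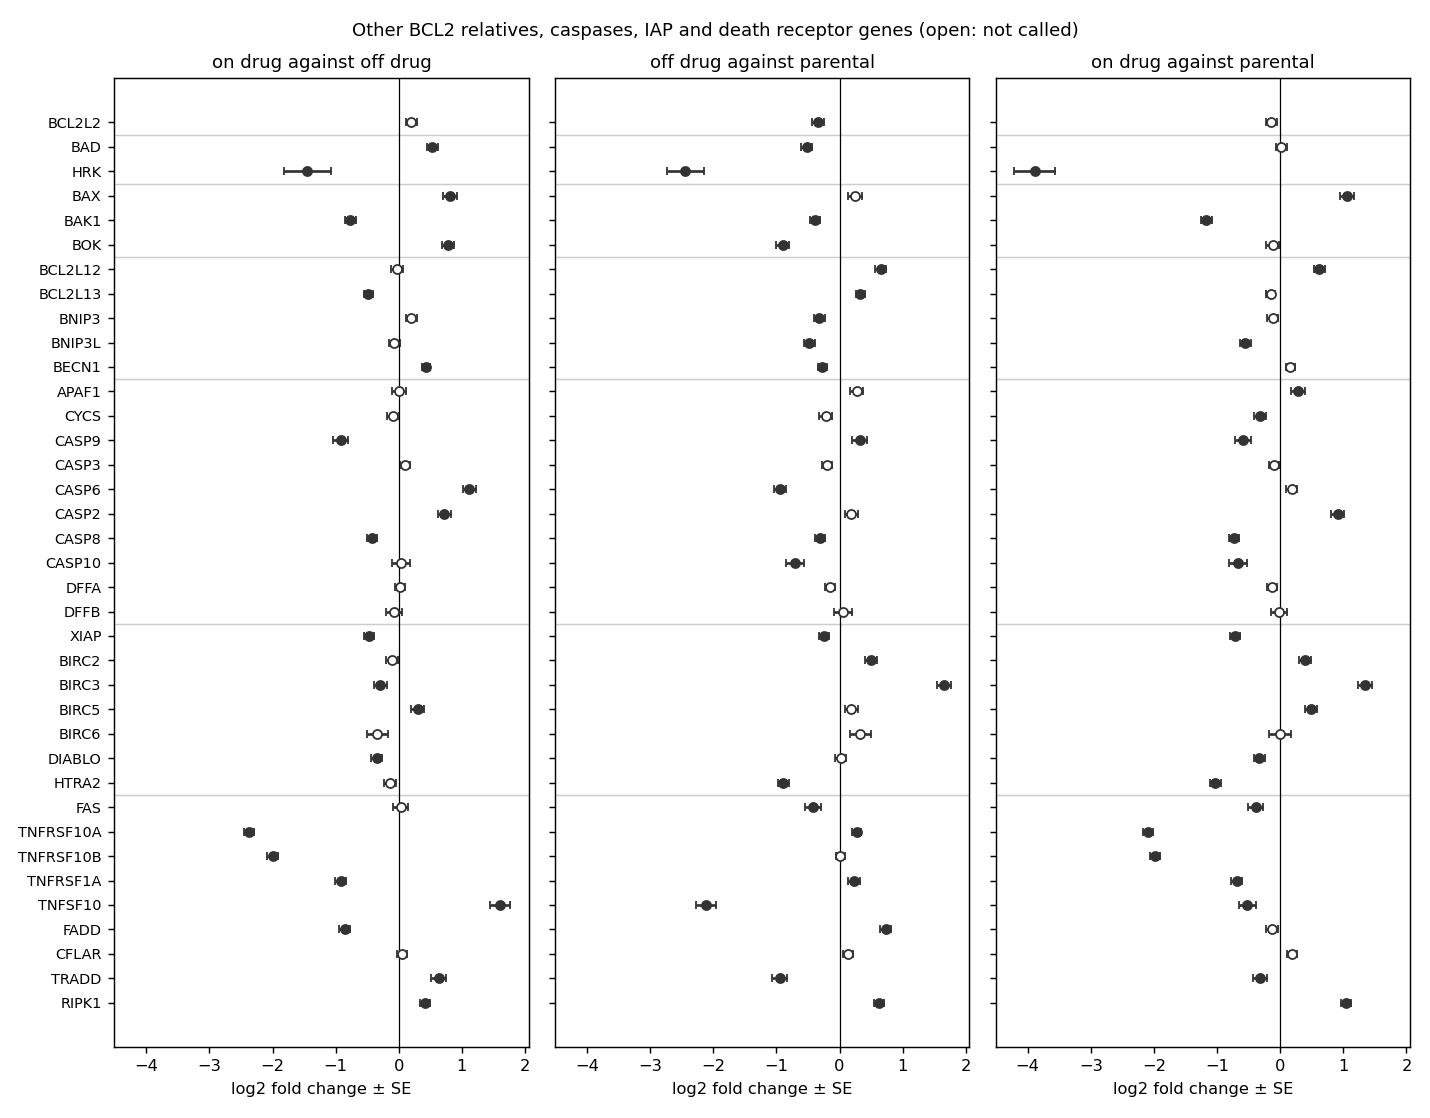
Log2 fold changes with standard errors of the other BCL2 relatives, caspase, IAP and death receptor genes reported here in the 3 comparisons, from the TMM-scaled fit; open points did not pass the test and grey lines separate the lists. TNFRSF10A and TNFRSF10B lie farthest left among the death receptor genes in on-drug against off-drug cells, at -2.37 and -2.

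The genes whose log2 CPM followed BCL2A1 most closely over the 9 libraries, among the 10618 genes averaging at least 1 on the log2 CPM scale, were TOMM34 (Pearson r = 0.9929), FBLIM1 (0.9920) and SPOCD1 (0.9875). TOMM34 averaged 43.5 ± 1.51 CPM in on-drug, 88.8 ± 2.5 CPM in off-drug and 34 ± 1.36 CPM in parental cells (SD, n = 3 each). For BIK, among 10617 genes, they were TVP23B (0.9971), TMEM156 (0.9969) and PROCR (0.9967), the last averaging 12.2 ± 0.781 CPM in on-drug, 38.1 ± 1.09 CPM in off-drug and 100 ± 10.1 CPM in parental cells. The 9 points fall into 3 cell states and share libraries and depth, so these values describe likeness only and carry no test.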

How the data were processed

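Poly(A) RNA from 9 NCI-H358 libraries was sequenced as paired reads on an Illumina NovaSeq, per the labels' protocols. Per the submitters' processing notes, the build was GRCh38.p13 and the tools included Salmon 0.14.1, bcl2fastq 2.17 and FastQC 0.12.1, with no role or order given. Which annotation release and strand setting were used, and how transcripts were summed to genes, is not stated. The authors deposited estimated counts per gene, not scaled for depth, and TPM values, scaled for length and depth.

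The design assumed plain counts, so the estimated counts were rounded to whole numbers. Genes were matched to symbols by Ensembl ID without version, and 141 of 60230 had no symbol. edgeR 4.0.16 (R 4.3.3) fitted all 9 libraries with TMM factors, 1 mean per state and no covariate, after filterByExpr with a minimum count of 10 and a total of 15, which kept 17307 genes. The quasi-likelihood test rested on 6 residual and 9.48 prior degrees of freedom, and the confidence intervals used both. P-values were adjusted by the Benjamini-Hochberg method over all genes tested, with a threshold of 0.05. Standard errors were taken from the F statistic of each contrast, and the script was tested on simulated data. Every member is named; of the other lists, up to 4 called genes per comparison with the largest change and an average log2 CPM of at least 1, with all BCL2 relatives allowed. Some genes of these lists are not reported here by name. Cell type markers and the antisense or noncoding genes sharing over 100 exonic bases with a member are also given.

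Alternatives were RLE, upper-quartile and library-size scaling, no filter and a minimum count of 50, limma 3.58.1 with voom, DESeq2 1.42.0, limma on log2(TPM + 1) or log2(TPM + 0.1) with and without a minimum mean of 1 TPM, a replicate block, fits of 2 groups only, and leaving out each library. No 2 libraries agreed within sampling noise (chi-square at least 5.113 per degree of freedom), so none were merged. Positions are from GENCODE 29 (GRCh38) and promoters from RefSeq; protein sequences were not used here. The members and gene lists were chosen with earlier results of these data known.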

Additional observations from a re-analysis of the deposited data

How the results depend on the processing

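Over 27 results (9 members in 3 comparisons) and all alternatives, 462 of 486 values kept their side of the threshold. Of these, 7 had a changed sign while not called. Another 15 lost the threshold with the same sign, 6 gained it, and 3 lost it with a changed sign. The causes were not tested. No member lost, gained or reversed a call in on-drug against off-drug cells. For MCL1 in on-drug against parental cells, library size alone gave -0.07. Each of the 3 TPM settings gave 0.03, a changed sign that did not pass the test. BCL2L1 gave -0.22 on unfiltered log2(TPM + 1) values. The pro-survival count lower in that comparison was then 1 with library size alone, 1 on both filtered TPM scales and 0 on the unfiltered one; the count higher was 2 without a filter on counts, where BCL2 entered, as it did in off-drug against parental cells (4 higher). In off-drug against parental cells BMF gave -0.37 with limma voom (adjusted p = 0.062) and -0.02, -0.04 and -0.02 on log2(TPM + 1), log2(TPM + 0.1) and unfiltered log2(TPM + 1) values. BBC3 gave -0.11, -0.12 and -0.11 and PMAIP1 0.32 on each of these, and PMAIP1 gave 0.2 with 2 groups only (adjusted p = 0.037). The BH3-only count there was 1 higher on each TPM scale and with 2 groups only, and 2 lower on each TPM scale.

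Leaving out 1 library at a time, the off-drug against parental values ranged from -0.49 to -0.3 for BMF, -0.49 to -0.23 for BBC3, 0.16 to 0.26 for PMAIP1 and 0.05 to 0.27 for BID, and the BH3-only counts from 0 to 2 higher and from 2 to 4 lower. Of all genes, those lower in on-drug against off-drug cells numbered 5403, against 3585 with library size alone and 2995, 2975 and 3000 on the TPM scales in the order above. Those lower in off-drug against parental cells numbered 4602, against 2529, 2531 and 2671, and those lower in on-drug against parental cells 5690, against 2828, 2802 and 3162. The filtered TPM scales tested 13826 genes.

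The labels number the libraries 1 to 3 in each state. Deviations of same-numbered libraries from their state means correlated at -0.034 to 0.135 over 9 pairs, and others at -0.1 to 0.067 over 18. Of 18 best matches, 6 shared a number, so no pairing by number was seen. A weak shared effect could be missed with 3 libraries per state. With the replicate block, 5383 genes were higher and 5375 lower in on-drug against off-drug cells, and no member call changed. Depth limits BCL2 and, in parental cells, BCL2A1.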

Other observations

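Transcription factors known to act on BCL2 family genes also differed between states. Of 11 such genes, 2 rose and 6 fell in on-drug against off-drug cells, with a median log2 fold change of -0.21 against 0.02 over all genes. With library size alone 3 rose and 4 fell (0.04 against 0.27), and on log2(TPM + 1) values 2 rose and 3 fell (0.03 against 0.16). DDIT3, which encodes the stress factor CHOP, had 10.4, 13 and 11.3 CPM in on-drug, 88, 80.1 and 97.4 CPM in off-drug and 71.3, 71.1 and 77.3 CPM in parental libraries. On-drug libraries were far below all others, and DDIT3 fell in on-drug against off-drug cells by 2.94 on the log2 scale (edgeR adjusted p = 1.4e-12). ATF4, its upstream partner in the stress response, also fell (-1.19 ± 0.08, edgeR adjusted p = 4.6e-09). E2F1, a cell cycle factor, had 45.9, 47.1 and 58.2 CPM in on-drug, 10.2, 9.74 and 9.82 CPM in off-drug and 3.27, 4.05 and 5.85 CPM in parental libraries. It was highest in on-drug and lowest in parental libraries, with a log2 fold change of 2.34 ± 0.14 in on-drug against off-drug cells (edgeR adjusted p = 1e-09). TP73 rose in on-drug against off-drug cells (2.01 ± 0.22, edgeR adjusted p = 9.7e-07) and fell in off-drug against parental cells (-2.18 ± 0.22, edgeR adjusted p = 7.1e-07).

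In off-drug against parental cells 7 of the 11 rose and 1 fell, with a median of 0.39 against 0, among them MYC (1.37 ± 0.08, edgeR adjusted p = 1.4e-09). In on-drug against parental cells 5 rose and 3 fell, with a median of 0.17 against 0.02. Of 10 genes whose products act on BCL2 family proteins after translation, 4 rose and 4 fell in on-drug against off-drug cells, with a median of 0.11 against 0.02. That even split was 5 higher and 1 lower (0.38 against 0.27) with library size alone and 5 higher and 0 lower (0.33 against 0.16, 9 genes tested by limma) on log2(TPM + 1) values. Those that rose included DYNLL1, a dynein light chain gene (0.74 ± 0.1, edgeR adjusted p = 1.2e-05). In off-drug against parental cells 4 of the 10 rose and 2 fell, with a median of 0.19 against 0. HUWE1, which encodes a ligase for MCL1 protein, rose (1.04 ± 0.16, edgeR adjusted p = 3.7e-05), as did USP9X (0.79 ± 0.14, edgeR adjusted p = 0.00015). DYNLL1 was among those that fell (-0.39 ± 0.1, edgeR adjusted p = 0.0045). In on-drug against parental cells 6 rose and 1 fell, with a median of 0.37 against 0.02. How these genes relate to the levels of the family was not tested.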
